A study of Mus musculus with 6 samples.

Results

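The genes described here encode the proteins of the mitochondrial ribosome. They are the rows whose symbol begins with Mrpl or Mrps and a number, plus Gadd45gip1 and Dap3, and they came to 79 of the 21878 gene rows. By their place in the ribosome, 51 belong to the large subunit and 27 to the small subunit. Mrps30, Mrps18a and Gadd45gip1 were counted with the large subunit and Dap3 with the small one, whatever their symbols say. Mrps36 was counted with neither, since its product is a subunit of the 2-oxoglutarate dehydrogenase complex. Mrpl58, a peptidyl-tRNA hydrolase built into the large subunit, is listed under its older symbol Ict1, which the rule does not take, so its values are given apart.

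The mitochondrial ribosome translates the few messenger RNAs that mitochondrial DNA encodes, all of them for core subunits of the respiratory chain and the ATP synthase. Its RNAs come from mitochondrial DNA, but every one of its proteins is encoded in the nucleus, made in the cytosol and imported, so both subunits depend on a balanced supply from many unlinked genes. Some of the proteins descend from bacterial ribosomal proteins, and the rest were added in the mitochondrial lineage. HSCs keep a low mitochondrial output at rest and raise it on activation.

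The values came from HSCs sorted from mouse BM as CD34-Flk2-Lineage-Sca1+c-Kit+ cells, with 3 RNA-seq libraries of control mice and 3 of mice treated with IGF1. All mice were WT, and per the methods recombinant mouse IGF1 was given once under the skin at 200 µg/kg, with cells taken at day 1. Age, and whether a library held cells of 1 mouse or of several, are not given in the sources used here, so p-values measure the spread between these libraries, which may be technical. The labels conflict, because the extraction text speaks of irradiated mice, while the treatment label, titles and design name IGF1, which was followed. In sorted bulk cells, fewer cells of a type and less RNA per cell cannot be told apart.

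The deposited values were taken as FPKM, that is fragments scaled to gene length and library depth. Recovered depth ran from 11206800 to 15973834 reads per library, and 0.678% to 1.15% of those reads fell on the 79 genes. The member with the fewest reads in any library, Mrpl43, still had 262. All 79 members passed the filter of at least 1 FPKM in at least 3 libraries and were tested with limma on log2(FPKM + 1) among 10449 genes. A gene was called when it changed over 2-fold with an adjusted p under 0.05. Over all genes tested, the median log2 fold change was -0.18, and it moved to -0.02, 0.12 and -0.02 under quantile, 75th percentile and median of ratios scaling, so the members are given beside it.

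Control replicate 2 stood apart from the other controls. Over the 79 members, the chi-squared per gene between recovered reads was 1.51 for control replicates 1 and 3 and 1.99 to 2.23 among the IGF1 libraries, where 1 is the value of counting error alone. Between control replicate 2 and the IGF1 libraries it was 31.2 to 36.6, and between control replicate 2 and the other controls 310 to 311. Control replicate 2 lay nearer to the IGF1 mean than to the mean of the other controls in 64 of 79 members. Among the 56 members in which IGF1 and those 2 controls were over 0.5 apart on the log2 scale, it had covered a median of 91.6% of the way. The counts and medians of the members are therefore also given without it.

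Sums of some markers of other cells moved with this split. The summed FPKM of 12 neutrophil and monocyte markers was 3652 and 3706 in control replicates 1 and 3, 6188 in control replicate 2 and 6174 to 6207 after IGF1, and that of 8 T and NK cell markers 372 and 360.4, 782, and 777 to 795. Single genes did not all follow these sums. Of the 11 neutrophil and monocyte markers tested, 0 were called higher and 4 lower. Of 3 T and NK cell markers tested, 1 was called higher and 0 lower, and of 6 megakaryocyte markers 2 and 0. Over all genes tested, 1.98% were called higher and 4.63% lower. The 9 B cell markers summed to 242 to 508 FPKM in controls and 459 to 472 FPKM after IGF1, the 8 megakaryocyte markers to 55.6 to 80.0 and 104 to 113, and the 10 erythroid markers to 42.3 to 114 and 57.4 to 63.2. The highest control sum of each of these lists was that of control replicate 2. Its B cell and erythroid sums, 508 and 114 FPKM, also lay above every IGF1 library. Ms4a1 and Pax5 of B cells, Cd3e, Cd3d and Cd8a of T cells, Alas2 and Ermap of erythroid cells and Vwf were under 1 FPKM in all 6 libraries. The 12 HSC markers, all of them above the filter, summed to 591 to 774 FPKM in controls and 514 to 532 FPKM after IGF1. The 8 proliferation genes summed to 898 to 1128 FPKM and 643 to 646 FPKM. Control replicate 2 had the highest HSC sum of all libraries, 774 FPKM, and the lowest proliferation sum among controls, 898 FPKM. The part of these shifts in the results below was not tested.

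The bases just before the start sites differ between members. RefSeq promoter windows on GRCm38.p6, from 250 bases before to 50 bases after the start, were matched for 68 of 79 members (74 windows). Capitals mark the letters CCGGAAG (the core of ETS factor sites) or GCGCATGC (the core of NRF1 sites) on either strand, and the windows shown end at the base before the start.
Mrpl33, chr5:31613891-31613950, plus strand, shown as the member with the largest log2 fold change: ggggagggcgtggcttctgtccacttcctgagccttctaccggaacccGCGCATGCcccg
Mrpl52, chr14:54426849-54426908, plus strand, shown as a called member: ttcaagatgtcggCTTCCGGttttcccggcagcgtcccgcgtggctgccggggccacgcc
Mrps22, chr9:98601680-98601739, minus strand, shown as a member that was lower after IGF1 and holds the same core as Mrpl52: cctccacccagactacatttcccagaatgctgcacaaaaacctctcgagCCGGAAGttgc
Mrps2, chr2:28468006-28468065, plus strand, shown as a member that was lower after IGF1 and holds neither core: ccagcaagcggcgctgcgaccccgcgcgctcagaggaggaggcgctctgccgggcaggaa
The end of the Mrpl33 window, core included, lies in the first exon of another annotated Mrpl33 transcript. An ETS core of Mrpl33 begins 3 bases before the start and runs past it. A further ETS core of Mrpl52 begins 2 bases after the start. Neither is marked above.

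The ETS core was found in 33.8% of the member windows, in 19.0% of the windows of all genes tested and in 8.86% of all windows. The YY1 core AAGATGGC was found in 16.2%, 4.83% and 2.75%, and the NRF1 core in 10.8%, 5.61% and 2.71%. None of these 3 cores contains another. Mrpl52 and Mrps22, on opposite sides in the IGF1 comparison, carried the ETS core 47 and 11 bases before the start. Of the members with a window, 20 of 48 with a log2 fold change above 0 and 5 of 20 below 0 held the ETS core. A match of letters is a description of the window and says nothing of which factor binds there.

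One pair of members from different subunits starts back to back on chromosome 7. Mrpl46 of the large subunit reads left and Mrps11 of the small subunit reads right from the following stretch, which lies between the annotated starts of their protein-coding transcripts. A non-coding Mrpl46 transcript begins further right, inside Mrps11, so exons of the genes overlap on opposite strands.
Mrpl46 to Mrps11, chr7:78783090-78783118, plus strand: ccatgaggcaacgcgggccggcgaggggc
Mrpl46 measured 70.4, 103 and 69.0 FPKM across control replicates 1 to 3, against 101, 98.9 and 99.0 FPKM across IGF1 replicates 1 to 3, and Mrps11 50.7, 115 and 53.6 FPKM among the controls, against 122, 122 and 118 FPKM after IGF1. Both were low in control replicates 1 and 3 and higher in the other 4 libraries, but Mrps11 did not overlap between groups and Mrpl46 did. Their log2 fold changes of 0.32 (adjusted p = 0.168 by limma) and 0.81 (adjusted p = 0.086 by limma) did not pass the test. Without control replicate 2 they were 0.51 and 1.19.

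Members of the mitochondrial ribosome were, on balance, higher after IGF1 than in control replicates 1 and 3, against a transcriptome whose median was lower. Control replicate 2 did not share this difference. Its median distance from the IGF1 mean was 0.08 in the large and 0.11 in the small subunit on the log2 scale. For the other controls these medians were -0.66 to -0.48. In 34 members control replicate 2 lay above all other libraries. Of 79 members, 57 had a log2 fold change above 0, with a median of 0.36, while 40.4% of all genes tested were above 0. Relative to the median of all genes, 66 of 79 members were higher. The count was also 66 under 75th percentile and median of ratios scaling, which rescale each library as a whole. Those scalings shift members and median alike, so the count could hardly differ. It was 67 under quantile scaling and 50 with length and GC trends removed. The test called 2 members higher, Mrpl52 and Gadd45gip1, and 0 lower, where 1.98% of all genes tested were called higher and 4.63% lower. By adjusted p alone, 3 members were higher and 6 lower, 9 of 79 against 20.4% of all genes, of which 6.26% were higher and 14.1% lower. Groups did not overlap in 26 members with IGF1 higher, against 21.9% of all genes, and in 14 with IGF1 lower, against 37.4%.

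Without control replicate 2, the median of the members was 0.61 and that of all genes -0.24. The calls then came to 22 members higher and 2 lower, where 12.3% of all genes were called higher and 20.6% lower. By adjusted p alone, 71 of 79 members passed, against 88.5% of all genes. With any other single library left out, 0 members and 0 of all 10449 genes were called, and 17 to 20 members had an unadjusted p under 0.05 by limma.

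**Figure D1:**
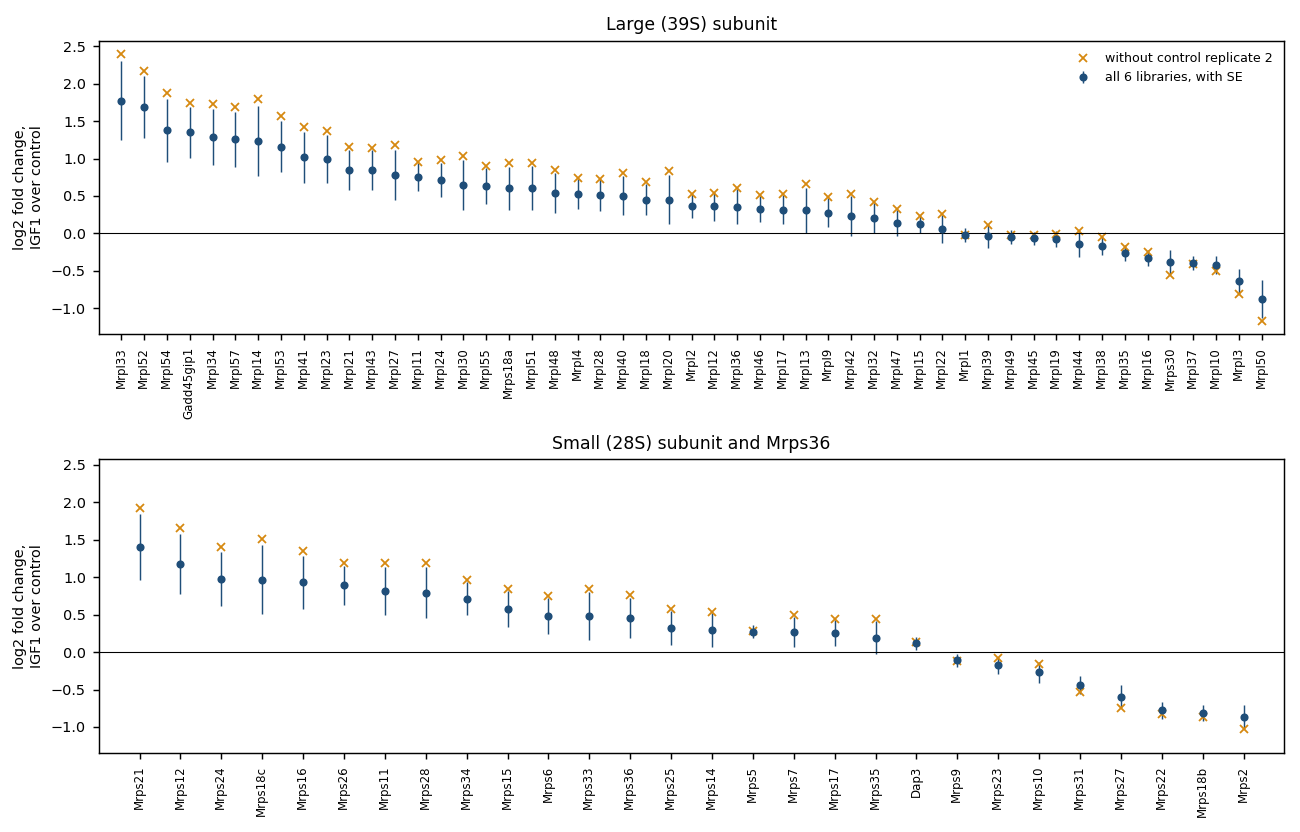
Log2 fold change on the log2(FPKM + 1) scale, IGF1 over control, of the 51 large subunit members (upper panel) and of the 27 small subunit members and Mrps36 (lower panel), ordered by size. Points with bars are the estimates and standard errors from all 6 libraries and crosses are the estimates without control replicate 2, so a reader sees values from -0.88 for Mrpl50 to 1.77 for Mrpl33 and values farther from 0 for most members once that library is left out.

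The subunits differed little from each other. Of the large subunit, 37 of 51 members had a log2 fold change above 0, with a median of 0.37, and of the small subunit 19 of 27, with a median of 0.30. The difference of 0.07 between these medians turned to -0.044 under quantile scaling. The large subunit members summed to 3691, 6953 and 3684 FPKM across control replicates 1 to 3, against 7527, 7427 and 7463 FPKM after IGF1. The small subunit members summed to 1685, 3285 and 1703 FPKM and to 3309, 3303 and 3385 FPKM. Both sums were low in control replicates 1 and 3 only, and the sum over all rows of the files also differed, from 466135 to 635111 FPKM in controls and 677826 to 680285 FPKM after IGF1.

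The large-to-small ratio of these sums was 2.19, 2.12 and 2.16 in controls and 2.27, 2.25 and 2.20 after IGF1. The groups did not overlap, but the means of 2.16 ± 0.037 and 2.24 ± 0.035 (SD, n = 3 each) differed by little. The order rested on 1 gene. Mrpl33 alone held 4.97%, 9.39% and 4.83% of all member FPKM in controls and 13.0%, 12.7% and 12.9% after IGF1. Without Mrpl33, a step chosen after its values were seen, the ratio was 2.03, 1.82 and 2.01 in controls and 1.84, 1.83 and 1.79 after IGF1, so IGF1 libraries no longer lay above the controls.

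**Figure D2:**
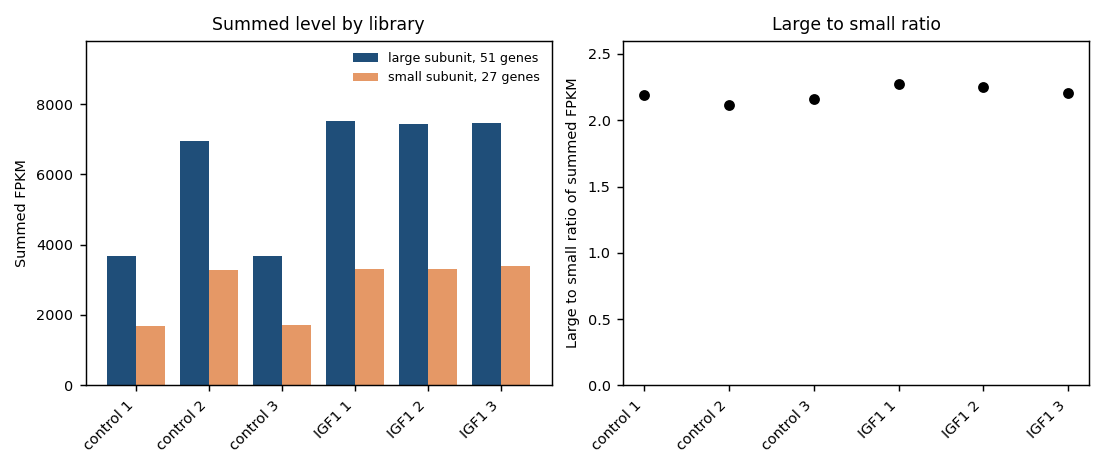
Left, summed FPKM of the large and the small subunit members in each library. Right, the ratio of both sums, which ran from 2.12 to 2.19 in controls and from 2.20 to 2.27 after IGF1, while the sums of control replicate 2 resembled those of the IGF1 libraries.

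The spread among members also differed between libraries. The SD of log2 FPKM over the 79 members was 1.03 in control replicates 1 and 3, 1.33 in control replicate 2 and 1.46 in each IGF1 library. Mrpl42 was the highest member in control replicates 1 and 3 and Mrpl33 in the other 4 libraries. The highest member exceeded the lowest 27.2-fold in control replicate 1, 72.5-fold in control replicate 2 and 102-fold to 110-fold after IGF1. Across the 79 members, which share libraries, the rank correlation of mean FPKM with the log2 fold change was 0.62, although both use the same values.

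Among large subunit proteins of bacterial descent, 23 of 29 had a log2 fold change above 0 (median 0.36). Mrpl33, a very small protein of the ribosome core, measured 269.7, 972 and 263 FPKM across control replicates 1 to 3, against 1426, 1374 and 1415 FPKM across IGF1 replicates 1 to 3. The second control was intermediate, and the groups did not overlap. Its log2 fold change was 1.77 (SE 0.53, limma adjusted p = 0.0554), the largest of all members with the deposited scaling and outside the threshold. Without control replicate 2 it was 2.40 (adjusted p = 1.53e-12 by limma). It was 1.13 under quantile scaling, below the 1.60 of Mrpl52, and 0.95 with length and GC trends removed, below the 1.54 of Gadd45gip1.

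Mrpl3, which reaches towards the peptidyl transferase centre, was on the other side. It measured 60.3, 42.9 and 63.6 FPKM among the controls, against 33.0, 35.2 and 36.5 FPKM after IGF1, with the lowest control above the highest IGF1 library. The log2 fold change of -0.64 (SE 0.17, limma adjusted p = 0.0483) passed by adjusted p but not by fold, and it was -0.07 once length and GC trends were removed.

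The stalk proteins, which recruit translation factors to the large subunit, did not share a direction. Mrpl11, at the stalk base, measured 20.8, 32.7 and 21.1 FPKM among the controls, against 43.7, 40.3 and 41.0 FPKM after IGF1. Mrpl10, which joins the base to the stalk, measured 55.6, 46.2 and 54.2 FPKM among the controls, against 40.3, 35.6 and 39.5 FPKM after IGF1. Mrpl12, the stalk protein itself, measured 239, 354 and 241 FPKM among the controls, against 347, 354 and 351 FPKM after IGF1. Mrpl11 and Mrpl10 did not overlap between groups, in opposite directions, whereas for Mrpl12 control replicate 2 lay among the IGF1 libraries. The log2 fold changes were 0.75 (SE 0.19, limma adjusted p = 0.0467), -0.42 (SE 0.12, limma adjusted p = 0.0508) and 0.36 (SE 0.19, limma adjusted p = 0.156), so Mrpl11 passed by adjusted p only.

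Around the polypeptide exit tunnel (Mrpl17, Mrpl22, Mrpl23, Mrpl24, Mrpl44 and Mrpl45), where new chains are handed to the inner membrane, 4 of 6 members were above 0, 0 were called and the median was 0.19. Mrpl23 had the highest value of them, 0.99, and Mrpl44 the lowest, -0.15. Gadd45gip1, which also lies near the exit and was called, is outside this list and is given below. The rarest large subunit transcripts were Mrpl1 and Mrpl15. Mrpl1, a protein of the mobile L1 stalk, measured 13.9, 13.4 and 13.3 FPKM among the controls, against 13.0, 13.5 and 13.4 FPKM after IGF1, so the groups overlapped (log2 fold change -0.02, adjusted p = 0.855 by limma), although this became 0.15 to 0.32 under the other scalings. Mrpl15 had a log2 fold change of 0.13 (adjusted p = 0.409 by limma).

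The called members both belong to the proteins that mitochondria added to the large subunit, of which 13 of 21 had a log2 fold change above 0 (median 0.50). Mrpl52 measured 72.6, 203 and 72.0 FPKM across control replicates 1 to 3, against 358, 312 and 321 FPKM across IGF1 replicates 1 to 3. Gadd45gip1, also known as CRIF1, sits near the exit of the tunnel and is needed to insert mitochondrial translation products into the inner membrane. It measured 56.5, 129 and 55.0 FPKM among the controls, against 193, 194 and 182 FPKM after IGF1. In both genes control replicate 2 stood above the other controls and below every IGF1 library, and the groups did not overlap. The log2 fold change was 1.68 (SE 0.42, limma adjusted p = 0.0458) for Mrpl52 and 1.35 (SE 0.34, limma adjusted p = 0.0459) for Gadd45gip1, and 2.18 and 1.75 without control replicate 2. Exact permutation tests gave p = 0.1 for each, the smallest that 3 libraries against 3 allow.

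Each call depended on settings. With the length and GC trends removed, Mrpl52 was 0.33, under the 2-fold threshold, and Gadd45gip1 was 1.54. Leaving out any library but control replicate 2 took the adjusted p of Mrpl52 to 0.155 to 0.164, and that of Gadd45gip1 to 0.156 to 0.164. Both calls were also lost without a filter (limma adjusted p = 0.0547 and 0.0558) and with the replicate block (limma adjusted p = 0.0851 for each).

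Mrpl54, the second most abundant member, measured 159.6, 427 and 145 FPKM among the controls, against 561, 577 and 540.3 FPKM after IGF1, with a log2 fold change of 1.38 (SE 0.42, limma adjusted p = 0.0575). As for Mrpl52, the second control was intermediate. With length and GC trends removed, the log2 fold change of Mrpl54 was 0.098 (adjusted p = 0.354 by limma). It was 0.13 with control replicate 2 also left out. Lower values after IGF1 were found for Mrpl50, at 38.8, 20.7 and 38.5 FPKM among the controls, against 17.2, 15.7 and 17.1 FPKM after IGF1, with control replicate 2 next to the IGF1 libraries. Its log2 fold change was -0.88 (SE 0.25, limma adjusted p = 0.0536). Mrpl37 had steadier controls, at 81.9, 81.7 and 86.6 FPKM, against 63.0, 60.9 and 65.2 FPKM after IGF1, with all 3 controls together and above all 3 IGF1 libraries. Its log2 fold change of -0.40 (SE 0.09, limma adjusted p = 0.0423) passed by adjusted p only. It was -0.31, -0.05 and -0.22 under quantile, 75th percentile and median of ratios scaling (limma adjusted p = 0.0638, 0.736 and 0.111). With length and GC trends removed it was -0.68 (limma adjusted p = 0.035).

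Mrps30, a large subunit protein despite its symbol, measured 65.3, 45.9 and 66.7 FPKM among the controls, against 43.3, 44.3 and 46.5 FPKM after IGF1. Control replicate 2 lay among the IGF1 libraries, and the log2 fold change of -0.38 (SE 0.16, limma adjusted p = 0.105) turned to 0.32 with length and GC trends removed.

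**Figure D3:**
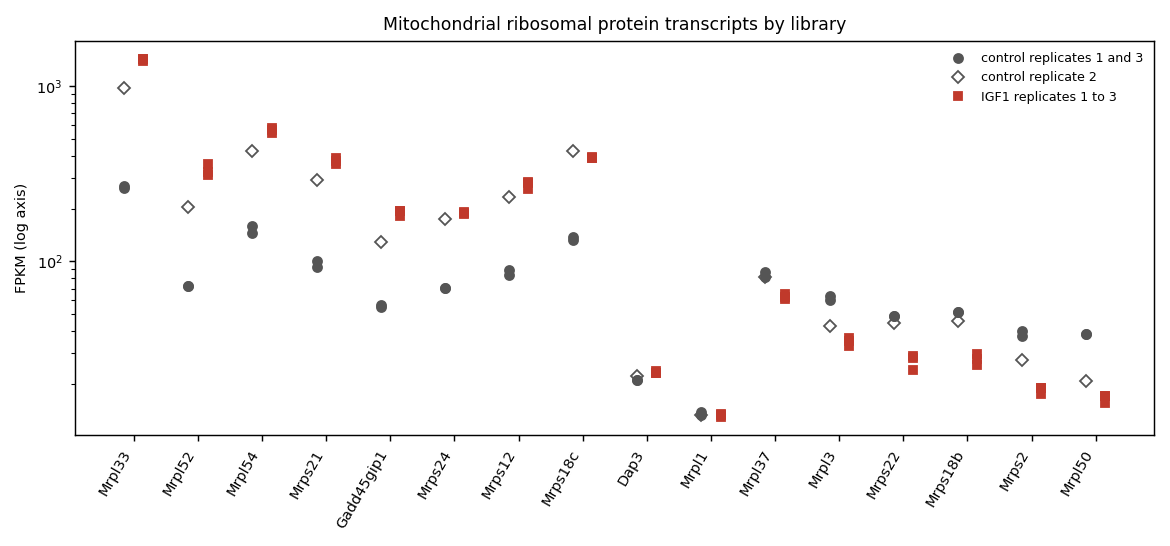
FPKM of 16 members in each library on a log axis, with control replicates 1 and 3 as filled circles, control replicate 2 as open diamonds and the 3 IGF1 libraries as squares. For Mrpl33 to Mrps12 the diamond lies between circles and squares, for Dap3 and Mrpl1 all 6 libraries are close together, and for Mrps22 and Mrps18b the diamond stays near the circles.

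In the small subunit, members of bacterial descent were above 0 in 12 of 15 cases (median 0.48) and the mitochondrial additions in 6 of 11 (median 0.12). Mrps21, a very short protein of the platform, measured 101, 289.6 and 92.8 FPKM across control replicates 1 to 3, against 371, 358 and 386 FPKM across IGF1 replicates 1 to 3. Mrps12, which lies at the decoding centre, measured 89.3, 232 and 83.1 FPKM among the controls, against 258, 279.9 and 284 FPKM after IGF1. Mrps24 measured 70.1, 174 and 70.8 FPKM among the controls, against 189, 187 and 191 FPKM after IGF1. All 3 genes were lowest in control replicates 1 and 3 and did not overlap between groups. None passed the test, with log2 fold changes of 1.41 (SE 0.44, limma adjusted p = 0.0594), 1.18 (SE 0.40, limma adjusted p = 0.067) and 0.98 (SE 0.36, limma adjusted p = 0.0779). Without control replicate 2 all 3 were called, at 1.93, 1.66 and 1.41. With length and GC trends removed they were 0.33, 0.39 and 0.36. With control replicate 2 also left out they were 0.42, 0.54 and 0.52, under the fold threshold.

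Of the members with roles at the decoding site and the head (Mrps7, Mrps9, Mrps10, Mrps12, Mrps14 and Dap3), 4 of 6 were above 0 and 0 were called. Mrps7, which binds the head of the small subunit RNA, measured 84.7, 138 and 88.6 FPKM among the controls, against 120.5, 124 and 122 FPKM after IGF1, with control replicate 2 above all other libraries (log2 fold change 0.27, adjusted p = 0.287 by limma). Dap3, a GTP-binding protein of the head first known from cell death, measured 21.1, 22.2 and 21.0 FPKM among the controls, against 23.1, 23.8 and 23.1 FPKM after IGF1. Its IGF1 libraries all lay above its controls by a small step, and the log2 fold change was 0.12 (SE 0.09, limma adjusted p = 0.305).

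Of the 6 members lower by adjusted p alone, 4 were among the 27 small subunit members, Mrps2, Mrps18b, Mrps22 and Mrps27, a share close to the 14.1% of all genes. Mrps2, the relative of bacterial S2, measured 40.2, 27.5 and 37.5 FPKM among the controls, against 19.1, 17.6 and 19.0 FPKM after IGF1. Mrps22, a mitochondrial addition in which mutations cause respiratory chain disease, measured 48.6, 44.5 and 48.6 FPKM among the controls, against 24.1, 29.1 and 28.3 FPKM after IGF1. Mrps27, a pentatricopeptide repeat protein, measured 45.5, 32.3 and 43.8 FPKM among the controls, against 27.1, 26.7 and 24.7 FPKM after IGF1. In each the groups did not overlap, and for Mrps22 control replicate 2 was close to the other controls. The log2 fold changes were -0.87 (SE 0.16, limma adjusted p = 0.0359), -0.78 (SE 0.11, limma adjusted p = 0.0287) and -0.60 (SE 0.15, limma adjusted p = 0.0473). None reached a 2-fold change with all libraries, while Mrps2 was called lower without control replicate 2, at -1.03, as was Mrpl50, at -1.17.

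The S18 family holds near relatives on both sides of 0. Mitochondria keep 3 relatives of the bacterial protein S18, of which Mrps18c takes its place in the small subunit, Mrps18b sits elsewhere in the small subunit and Mrps18a is part of the large one. Mrps18c measured 133, 427 and 138 FPKM among the controls, against 393, 387 and 386 FPKM after IGF1. Mrps18a measured 103, 205 and 101 FPKM among the controls, against 196, 199.7 and 192 FPKM after IGF1. Mrps18b measured 51.2, 45.9 and 51.2 FPKM among the controls, against 27.7, 25.8 and 29.8 FPKM after IGF1. Mrps18c and Mrps18a were low in control replicates 1 and 3, with control replicate 2 above every IGF1 library, whereas Mrps18b was high in all 3 controls and low in all 3 IGF1 libraries. Their log2 fold changes were 0.97 (SE 0.46, limma adjusted p = 0.13), 0.60 (SE 0.29, limma adjusted p = 0.13) and -0.81 (SE 0.11, limma adjusted p = 0.0287). Mrps18b passed by adjusted p only and stayed below 0 under the other scalings, at -0.57 (quantile), -0.47 (75th percentile) and -0.63 (median of ratios), and the difference between relatives was not itself tested. Mrps18a turned to -0.16 with length and GC trends removed.

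At the low end of the small subunit, Mrps25 measured 10.7, 18.9 and 10.5 FPKM among the controls, against 16.6, 15.8 and 16.7 FPKM after IGF1 and Mrps31 22.1, 17.8 and 21.8 FPKM among the controls, against 14.2, 15.5 and 15.0 FPKM after IGF1. Mrps25 was low in control replicates 1 and 3 only, and Mrps31 was higher in each control than in each IGF1 library. Their log2 fold changes were 0.32 (SE 0.23, limma adjusted p = 0.274) and -0.44 (SE 0.12, limma adjusted p = 0.0524). Mrps16, a bacterial-type protein and the second most abundant of the small subunit, measured 141, 336 and 139.9 FPKM among the controls, against 349.8, 361 and 368 FPKM after IGF1, again lowest in control replicates 1 and 3 (log2 fold change 0.93, adjusted p = 0.0824 by limma). Its log2 fold change was 1.49 with length and GC trends removed. Mrps36, of the 2-oxoglutarate dehydrogenase complex, had a log2 fold change of 0.46 (adjusted p = 0.191 by limma).

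The size of the protein went with the direction of its transcript. The rank correlation between coding length and log2 fold change was -0.63 over the 79 members, -0.65 over the large and -0.62 over the small subunit, and -0.21 over 10298 genes tested. These are descriptions across genes that share libraries. Of the 20 members with the shortest coding sequence, 261 to 429 bases, 20 were above 0, with a median log2 fold change of 0.95. Of the 20 with the longest, 873 to 1326 bases, 6 were above 0, with a median of -0.09. All genes tested in the same length ranges had medians of 0.75 and -0.26, with 81.6% and 34.7% above 0, so short genes in general shared the direction. In the ranges between, members had medians of 0.53 and 0.36 where all genes had 0.19 and -0.03. Without control replicate 2, the medians of the members from the shortest to the longest range were 1.38, 0.89, 0.55 and -0.03.

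Members departed from this order on both sides. Mrpl50, at 477 coding bases, was the member with the lowest log2 fold change, and Gadd45gip1, at 666 coding bases, was called higher. With transcript length and GC trends removed from every library, the members' median was 0.24, 0.25 in the large and 0.24 in the small subunit, beside -0.04 over all genes, and 50 of 79 members were above 0. That correction used the longest reference transcript, which for some members is not the length behind the deposited values.

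**Figure D4:**
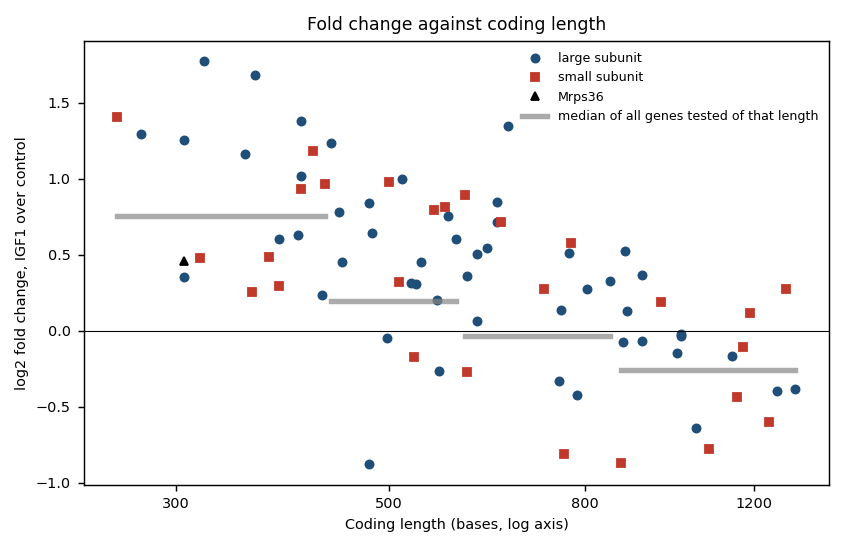
Log2 fold change on the log2(FPKM + 1) scale of each member against its coding length on a log axis, with large subunit members as circles, small subunit members as squares and Mrps36 as a triangle. Grey bars give the median of all genes tested in 4 length ranges, from 0.75 in the shortest to -0.26 in the longest, and members lie from mostly above 0 at the left to mostly below 0 at the right.

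Other genes of mitochondrial translation depended on the scaling in their sign. All 11 translation factors tested had a log2 fold change below 0 with the deposited scaling, while 4, 6 and 1 of them were above 0 under quantile, 75th percentile and median of ratios scaling, and 0 were called. Their median was -0.30, and -0.39 without control replicate 2, beside medians of -0.18 and -0.24 over all genes. Gfm1, the elongation factor that moves the ribosome along, measured 28.3, 14.4 and 26.3 FPKM among the controls, against 11.3, 10.6 and 10.8 FPKM after IGF1, with control replicate 2 nearest to the IGF1 libraries (log2 fold change -0.96, adjusted p = 0.0499 by limma, with the fold under 2). Tufm, which delivers aminoacyl-tRNA, measured 84.0, 70.2 and 86.5 FPKM among the controls, against 64.7, 65.6 and 64.2 FPKM after IGF1 (log2 fold change -0.30, adjusted p = 0.083 by limma, and 0.048 under 75th percentile scaling). Tsfm, its exchange factor, the initiation factors Mtif2 and Mtif3 and the recycling factor Mrrf had log2 fold changes of -0.13, -0.27, -0.41 and -0.29, none past the threshold, and those of Tsfm, Mtif2 and Mrrf were above 0 under quantile scaling.

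Of 28 assembly and ribosomal RNA factors, 10 were above 0 and 18 below, with a median of -0.17, next to the -0.18 of all genes, and 16 lay above that median of all genes. Above 0 were 16, 16 and 14 of 28 under quantile, 75th percentile and median of ratios scaling, and the list's median was -0.18 without control replicate 2. The test called 0 higher and 2 lower, where 4.63% of all genes were called lower. Lrpprc, which stabilizes mitochondrial messenger RNAs, measured 23.2, 10.1 and 24.2 FPKM among the controls, against 5.44, 5.04 and 5.42 FPKM after IGF1. Gtpbp10, a GTPase that matures the large subunit, measured 10.6, 4.3 and 10.6 FPKM among the controls, against 2.03, 2.38 and 2.16 FPKM after IGF1. In both the second control was intermediate, without overlap between groups. The log2 fold changes were -1.59 (SE 0.33, limma adjusted p = 0.0382) and -1.49 (SE 0.32, limma adjusted p = 0.041), and -1.97 and -1.86 without control replicate 2. Both calls were lost when any other single library was left out (adjusted p of 0.147 to 0.164), and that of Gtpbp10 also with length and GC trends removed, at -0.68, and with a pseudocount of 5, at -0.87.

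The ribosomal proteins that the naming rule leaves out lay on both sides of 0. Chchd1 of the small subunit measured 122, 305 and 123 FPKM among the controls, against 399, 397 and 378 FPKM after IGF1, and Ptcd3, a pentatricopeptide repeat protein of the same subunit, 47.7, 11.0 and 49.0 FPKM among the controls, against 8.55, 8.16 and 7.49 FPKM after IGF1. Control replicate 2 lay on the IGF1 side in both. Their log2 fold changes of 1.23 (SE 0.37, limma adjusted p = 0.0567) and -1.77 (SE 0.56, limma adjusted p = 0.061) were outside the threshold. Aurkaip1 and Ict1 had log2 fold changes of 0.70 (adjusted p = 0.0943 by limma) and 0.83 (adjusted p = 0.0573 by limma).

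Some members could share reads with neighbours. Exons of 22 members overlap another protein-coding gene on the opposite strand, and those of Mrpl53, Mrps24, Mrps34 and Mrps6 overlap one on the same strand. The library kit marks strand, but the strand setting of the counting is not given in the sources used here, nor is the treatment of reads shared with processed pseudogenes.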

How the data were processed

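RNA-seq was performed by the authors on HSCs from 3 control and 3 IGF1 libraries (TruSeq Stranded mRNA). The methods name fastp, RSEM and DESeq2, whereas the submitters' processing notes list fastp, HISAT2, StringTie and GRCm38/mm10. Each deposited file lists gene symbols with 1 value each, in a unit the files do not name, and these values of the authors were taken as FPKM. Their steps gave whole reads for 15640 of 15640 expressed genes (100%, tolerance 0.001 of a read), on the assumption that the smallest step was 1 read.

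For the test, limma 3.58.1 (R 4.3.3) was fitted with lmFit and eBayes, with a trend, to log2(FPKM + 1) of 10449 genes, filtered and called as given above, with Benjamini-Hochberg adjustment over all of them, and the test was checked on simulated data. Fold changes on this scale understate those of low genes. The study's DESeq2 needs counts and was not used. Single members were also compared by 2-sided exact permutation tests. The members and lists were chosen with earlier results of these data known. The genes named are the called members, the 4 highest and 4 lowest log2 fold changes and the 2 highest and 2 lowest mean FPKM in each subunit, a list of members by role, and the called genes and main factors of the pathway lists. Mrpl46 and Mrps11 were chosen for their position, and Mrpl23 and Mrpl44 after their values were seen. Coding and transcript lengths and exons came from GENCODE vM21 and promoter windows from RefSeq (GRCm38.p6). Alternatives were 3 scalings, filters, pseudocounts, no variance trend, a replicate block, library weights, length and GC trends, left-out libraries and voom on the recovered reads. Voom, and length and GC trends without control replicate 2, were added after seeing the data. Values of some single genes are not reported here.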

Additional observations from a re-analysis of the deposited data

How the results depend on the processing

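Members called numbered 2 with the deposited scaling (6.61% of all genes), 3 under quantile (5.96%) and 75th percentile scaling (5.14%), 0 without a filter (2.39%), 24 with library weights (32.9%), 15 with length and GC trends removed and control replicate 2 left out (18.7%), 9 by adjusted p alone (20.4%), and 0 to 24 when 1 library was left out (0% to 32.9%). The replicate block gave 0 members and 0 of all genes called, with 31 members at an unadjusted p under 0.05 by limma. The replicate numbers were not taken as pairs in the main fit. Same-numbered libraries correlated at -0.057, -0.050 and 0.0057 in their deviations. With 3 libraries per group and control replicate 2 apart, these values cannot show or exclude pairing. With all libraries, groups did not overlap in 40 members (50.63%), against 59.35% of all genes. Members without overlap numbered 40 to 72 when 1 library was left out. The share over all genes is not given for those settings, so these counts are no result about the members. The large and small subunit medians were 0.71 and 0.64 under 75th percentile scaling, and 0.27 to 0.66 and 0.20 to 0.53 when 1 library was left out. The large minus small difference was 0.07, -0.044 under quantile scaling, 0.011 with length and GC trends removed, -0.098 with control replicate 2 also left out, and 0.058 to 0.12 when 1 library was left out. The causes were not tested.

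Signs turned for Mrpl1 (0.32 quantile, 0.30 75th percentile, 0.15 median of ratios, 0.71 length and GC, 0.94 also without control replicate 2), and with length and GC trends removed, and then also without control replicate 2, for Mrpl12 (-0.073, -0.067), Mrps18a (-0.16, -0.15), Mrps30 (0.32, 0.39), Mrps36 (-0.082, -0.056), Mtif2 (0.42, 0.55) and Mrrf (0.19, 0.41). Under quantile, 75th percentile and median of ratios scaling Tsfm gave 0.086, 0.22 and 0.049. Under quantile and 75th percentile scaling Mtif2 gave 0.054 and 0.050 and Mrrf 0.051 and 0.038, and under 75th percentile scaling Tufm gave 0.048. Of 758 values of 40 named genes under alternatives, 663 kept direction and side of the threshold, 39 newly passed, 31 no longer passed and 25 changed sign. Filters, the variance trend and the replicate block leave log2 fold changes unchanged, so no sign could turn there. Where 0 of all genes were called, a gene not called before necessarily kept its side. The tally is therefore no measure of robustness.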
